A study of Mus musculus with 16 samples.

Results

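Cathepsins are the mouse's own relatives of papain, the plant protease injected in this experiment, and cystatins are the proteins that inhibit them. Described here are 10 genes in footpad epidermal cells, the cathepsins Ctsb, Ctsc, Ctsd, Ctsh, Ctsk, Ctsl, Ctss and Ctsz and the cystatins Cst3 and Cst6. The genes were chosen by name from the 50600 gene identifiers of the count table, and all 10 were among the 22155 genes tested, those whose counts over all libraries came to 10 or more. Female C57/B6J mice were placed at 5 wk of age on a purified diet poor in ligands of the aryl hydrocarbon receptor (AhR-poor diet) or on the same diet with indole-3-carbinol added (I3C diet), and were used after 3 wk. Vehicle (PBS) or 50 µg of papain was injected into the footpad, and epidermal cells were isolated after 6 hr with dispase and removal of dead cells. There were 16 libraries, 4 in each group: I3C diet with vehicle (T108, T109, T110, T111), I3C diet with papain (T106, T113, T114, T115), AhR-poor diet with vehicle (T100, T101, T102, T103) and AhR-poor diet with papain (T104, T105, T107, T112). No genetic change is named for any group. Mice on the same diet were kept in the same cage, so that diet and cage cannot be told apart.

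Most cathepsins are cysteine proteases of the lysosome and belong to the papain family. They are made as inactive precursors and break down proteins delivered to the lysosome, and some also trim the invariant chain and antigens in antigen-presenting cells or are released outside the cell. Cathepsin D is grouped with them by location but is an aspartic protease with another fold and mechanism. Cystatins block papain-like proteases by pushing a conserved loop into the active site. In the epidermis, cystatin M/E (Cst6) is known to hold legumain and cathepsin L in check, and through them the transglutaminase that crosslinks the cornified envelope.

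The coding stretches around the catalytic residue are shown because they are what the cathepsins share with papain. Each is 30 bases of the mm10 coding sequence, read 5′ to 3′ on the coding strand, with the codon of the catalytic cysteine in capitals. For Ctsd the capitals mark the codon of a catalytic aspartate instead.
Ctsb: ggctcctgcggctctTGTtgggcatttggg
Ctsc: gaatcttgtggaagcTGCtactcatttgcc
Ctsh: ggggcctgtggcagcTGCtggactttctct
Ctsk: ggccagtgtggttccTGTtgggctttcagc
Ctsl: ggccagtgcgggtctTGTtgggcgtttagc
Ctss: ggttcttgtggtgccTGCtgggctttcagt
Ctsz: cagtactgtggttccTGCtgggcccacggc
Ctsd: gtcgtctttGATactggctcctctaacctg

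The 2 most alike of the 7 cysteine cathepsins were Ctsk and Ctsl, with 25 of 30 bases identical, and the 2 least alike were Ctsc and Ctsl, with 13 of 30. The windows of Ctsb and Ctsc span an exon junction, so that they are not unbroken in the genome. The search pattern required a tryptophan codon after the cysteine and was widened to a tyrosine codon after Ctsc had no match. The Ctsk site lay at chr3:95502582-95502611 and the Ctss site at chr3:95545333-95545362, both on the plus strand. The site of Ctsz lay at chr2:174438184-174438213 and that of Ctsl at chr13:64367063-64367092, both on the minus strand. Despite the shared site, no stretch of 50 bases was common to the exons of any pair of the 10 members. The cystatins are shown by the conserved loop that enters the protease, with its codons in capitals, and both windows again span a junction.
Cst3: aagCAGCTCGTGGCTGGAgtgaactatttt
Cst6: tatCAGCTGGTGGCTGGCatcaagtactac

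Library totals lay between 22500821 and 51844375 counts, and 3 counts, taken as the floor of detection, equalled 0.0569 to 0.130 CPM (counts in proportion to the library's total, with TMM factors applied). This floor covers counting error only. Keratinocyte markers were high in every library, with summed levels of 7 basal keratinocyte genes from 21070 to 37273 CPM and of 7 suprabasal genes from 24468 to 65727 CPM over all libraries. Markers of other cells were present at far lower levels, and those of several cell types differed between the diets. The summed level of 12 dermal fibroblast markers was 20.7 to 25.2 CPM with vehicle and 12.1 to 26.1 CPM with papain on the I3C diet, against 122 to 212 CPM and 308 to 746 CPM on the AhR-poor diet. The 13 monocyte and macrophage markers summed to 20.2 to 29.3 and 13.3 to 46.3 CPM on the I3C diet, and to 55.1 to 68.5 and 133 to 568 CPM on the AhR-poor diet. For 7 Langerhans cell markers the sums were 109.5 to 261 and 108.2 to 366 CPM on the I3C diet, and 450 to 518 and 418 to 556 CPM on the AhR-poor diet. With vehicle the diets overlapped in the sums of 5 pericyte and smooth muscle markers (3.75 to 7.72 and 3.42 to 7.76 CPM) and of 4 eccrine sweat gland markers (3.88 to 8.67 and 5.12 to 13.2 CPM). With papain the pericyte and smooth muscle sums did not overlap, at 8.71 to 21.1 CPM on the I3C and 21.6 to 24.2 CPM on the AhR-poor diet. The sweat gland sums did, at 3.02 to 5.08 and 4.10 to 7.05 CPM. In such bulk samples, fewer cells of a type and less RNA per cell cannot be told apart.

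Levels of different genes were compared per kb of exon. Cst3, the secreted cystatin C, had the highest level at 349 ± 31.3 CPM per kb (SD, n = 16), and its lowest library at 283 lay above every library of the other 9 members. Ctsd at 100.0 ± 12.2, Ctsb at 78.5 ± 34.2 and Cst6 at 68.2 ± 17.3 CPM per kb came next, with ranges that overlapped. A gap separated them from Ctsl at 13.1 ± 2.55 CPM per kb, whose highest library at 19.0 lay under the lowest of Cst6 at 39.3. Ctss at 11.3 ± 11.8, Ctsz at 9.33 ± 8.41, Ctsh at 8.85 ± 1.14 and Ctsc at 8.12 ± 1.91 CPM per kb overlapped with each other and with Ctsl. Ctsk, the collagen-degrading cathepsin best known from osteoclasts, was lowest at 1.28 ± 1.90 CPM per kb. The order within the lower set changed with the group. With vehicle on the I3C diet Ctss stood at 3.41 ± 1.57 and Ctsz at 2.47 ± 0.69 CPM per kb (SD, n = 4), under Ctsc at 6.58 ± 1.14. With papain on the AhR-poor diet Ctss at 28.2 ± 12.2 and Ctsz at 22.2 ± 6.31 CPM per kb had higher means than Ctsl at 15.7 ± 2.36, although their ranges overlapped with it. This order depended on the length used, and per kb of coding length in that group Ctsl stood at 101.4 ± 15.3 CPM, above Ctss at 37.5 ± 16.2 and Ctsz at 34.9 ± 9.91. Over all libraries, coding length in place of exonic length moved Cst6 to the second place and Ctsd to the fourth, and put Ctsh and Ctsc above Ctss and Ctsz.

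**Figure D1:**
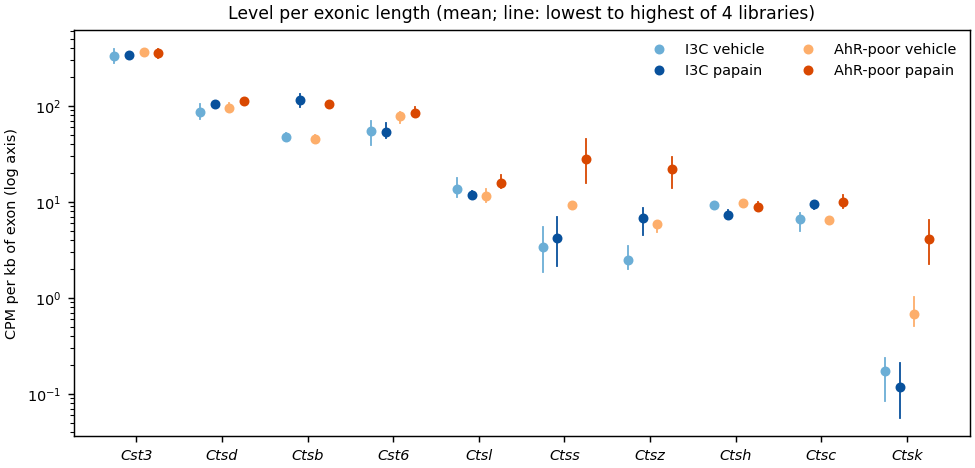
Level of each member per kb of exon (log axis, CPM per kb) in the 4 groups, with points at the group mean and lines from the lowest to the highest of 4 libraries. Cst3 sits at the top in all groups, and Ctss, Ctsz and Ctsk are spread widest between groups, with Ctsk from a mean of 0.119 to 4.15 CPM per kb.

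Each of 4 comparisons was taken from 1 model over all libraries, with changes given as log2 fold change ± SE, and a gene counted as called at an adjusted p below 0.01 with a log2 fold change beyond 1 in size. The comparisons share libraries pairwise and are not independent of each other. Between the diets with vehicle (AhR-poor minus I3C), 2 of 10 members were called higher, beside 1.59% of all genes tested. With papain, 3 members were higher on the AhR-poor diet, beside 7.15%. Papain against vehicle raised 4 members on the AhR-poor diet, beside 6.04% of all genes, and 2 on the I3C diet, beside 3.69%. By this edgeR test no member was called lower in any of these, beside 0.0%, 0.0993%, 2.42% and 5.29% of all genes, nor by DESeq2, and at an unadjusted p below 0.05 1 was lower, Ctsh with papain on the I3C diet. Under a looser rule, an adjusted p below 0.05 with no limit on the fold, the same comparisons had 2 members higher beside 2.98% of all genes, 6 beside 12.3%, 7 beside 17.7% and 4 beside 16.9%. By that rule 1 member was lower, with papain on the I3C diet, beside 18.4%, and none was in the other 3, beside 0.0993%, 8.36% and 15.7%. The median log2 change of the members was 0.13, 0.34, 0.53 and 0.14 in that order, against -0.01, 0.01, -0.00438 and -0.04 over all genes tested. Counted by libraries that did not overlap, 3 members were higher with vehicle (6.45% of all genes), 6 with papain between the diets (12.5%), 7 with papain on the AhR-poor diet (17%) and 3 with papain on the I3C diet (16.2%), where 1 was lower (17.3%). None was lower in the other 3, beside 1.67%, 12.3% and 16% of all genes.

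**Figure D2:**
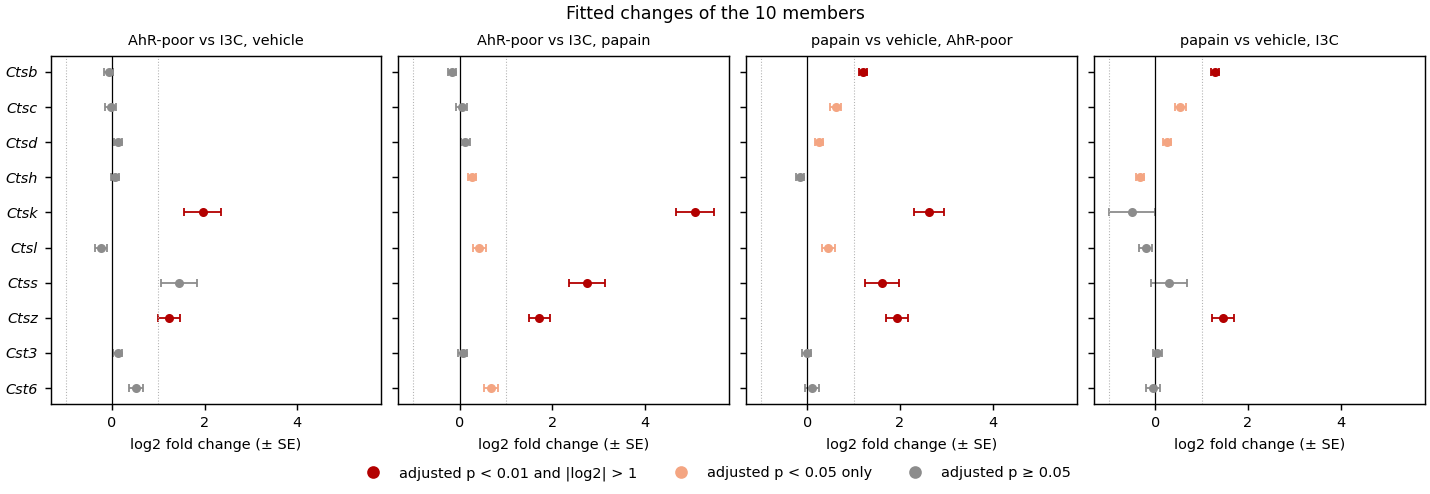
Log2 fold change of the 10 members in the 4 comparisons (points, with bars of 1 SE), coloured by the call rule passed. Ctsb and Ctsz lie to the right of 1 in both papain comparisons, while Ctsk, Ctss and Ctsz stand out between the diets, with Ctsk at 5.08 with papain.

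Papain raised Ctsb 2.45-fold on the I3C diet and 2.30-fold on the AhR-poor diet. Cathepsin B had the highest level of the cysteine cathepsins per kb of exon and is one that both cuts within chains and trims their ends. With vehicle the libraries of the I3C diet had 318, 285, 272 and 279 CPM, and those of the AhR-poor diet had 281, 261, 302 and 255 CPM. With papain the values were 590, 667, 801 and 766 CPM on the I3C diet and 615, 652, 611 and 647 CPM on the AhR-poor diet. Every papain library was above every vehicle library, and the vehicle libraries of the diets overlapped. The log2 change was 1.29 ± 0.09 on the I3C diet (adjusted p = 6.20e-09) and 1.20 ± 0.09 on the AhR-poor diet (adjusted p = 3.02e-08), and both calls held in all 16 refits without 1 library and in every other alternative run. The difference between these changes was -0.09, with a 95% interval from -0.34 to 0.16. The end of Ctsb (chr14:63122462-63145923) shares 774 exonic bases with Fdft1, a gene of cholesterol synthesis on the opposite strand, and how strand was treated in counting is not given in the sources used here. Fdft1 rose by 0.81 ± 0.15 with papain on the I3C diet (adjusted p = 3.01e-04), whereas its change on the AhR-poor diet was 0.18 ± 0.14 (adjusted p = 0.385), where Ctsb rose as well.

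Ctsc and Ctsd rose less, by under 2-fold. Ctsc, or dipeptidyl peptidase I, activates the serine proteases of neutrophils and mast cells. Its mean went from 38.2 ± 6.63 to 55.5 ± 4.71 CPM on the I3C diet (SD, n = 4) and from 37.6 ± 2.99 to 57.3 ± 8.91 CPM on the AhR-poor diet, and on each diet the groups did not overlap. These were log2 changes of 0.54 ± 0.12 (adjusted p = 0.00164) and 0.61 ± 0.12 (adjusted p = 6.61e-04), which passed the looser rule in all 16 refits without 1 library. Ctsd rose by 0.25 ± 0.09 (adjusted p = 0.0359) and 0.24 ± 0.09 (adjusted p = 0.0412). These small changes of Ctsd were lost at the looser rule in 10 and 12 of 16 refits without 1 library, where the adjusted p rose to 0.125 and 0.146. On the I3C diet the libraries were T106, T107, T108, T109, T110, T113, T114, T115, T100 and T103, and on the AhR-poor diet all but T102, T106, T108 and T111. Ctsd shares 808 exonic bases with Gm49369 on the same strand, which had 0 counts in all libraries.

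Ctsh and Ctsl moved in small steps that differed from those of Ctsb. Ctsh, an aminopeptidase, fell with papain on the I3C diet from 42.0 ± 3.04 to 33.2 ± 3.38 CPM (SD, n = 4; log2 change -0.34 ± 0.09, adjusted p = 0.0041), and its lowest vehicle library at 38.2 lay above its highest papain library at 37.1. On the AhR-poor diet its change was -0.15 ± 0.09 (adjusted p = 0.184). Ctsl, a strong endopeptidase with a role in hair and epidermis, rose with papain on the AhR-poor diet from 74.3 ± 10.6 to 101.6 ± 15.3 CPM (log2 change 0.45 ± 0.13, adjusted p = 0.0142), a call under the looser rule that was lost without T101 or T104 (adjusted p up to 0.0600). On the I3C diet its change was -0.21 ± 0.13 (adjusted p = 0.248). The difference between the diets in the papain change of Ctsl was 0.66 ± 0.19 (adjusted p = 0.147). With papain, Ctsl was 0.42 ± 0.13 (adjusted p = 0.0313) and Ctsh 0.26 ± 0.09 (adjusted p = 0.0395) higher on the AhR-poor diet. The call for Ctsl was lost without T104, T107, T114 or T115 (adjusted p up to 0.137), and that for Ctsh without T101, T104, T105, T107, T114 or T115 (adjusted p up to 0.136). The exons of Ctsl overlap 2 annotated genes that were not used here.

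**Figure D3:**
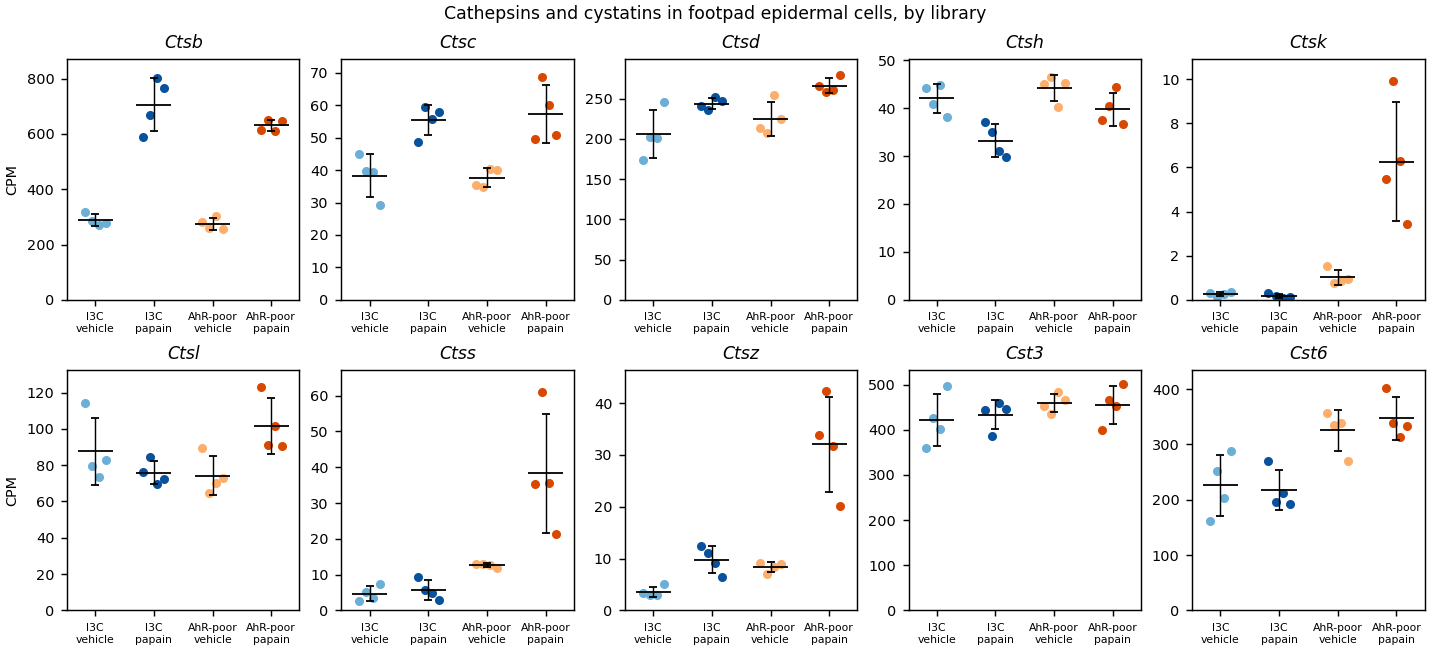
CPM of each member in each of 16 libraries (linear axes from 0, a point per library, with the mean as a bar and the SD of 4 libraries as whiskers). Ctsb is raised by papain on both diets, Ctsk, Ctss and Ctsz are highest with papain on the AhR-poor diet, and Cst3 stays between 359 and 501 CPM throughout.

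Ctsk showed the widest range of the members between groups. On the I3C diet it was close to the floor, with 10, 5, 10 and 12 counts in the vehicle libraries (0.287, 0.127, 0.272 and 0.360 CPM) and 13, 6, 3 and 5 counts in the papain libraries (0.317, 0.192, 0.0856 and 0.124 CPM). On the AhR-poor diet it reached 1.53, 0.768, 0.841 and 0.939 CPM with vehicle, and 5.47, 9.90, 6.28 and 3.43 CPM with papain. Both AhR-poor groups lay wholly above both I3C groups, and papain separated the libraries of the AhR-poor diet but not those of the I3C diet. The diet difference was 1.96 ± 0.40 with vehicle (adjusted p = 0.00737) and 5.08 ± 0.41 with papain (adjusted p = 2.08e-07), a fold of 33.9. Papain raised Ctsk by 2.62 ± 0.33 on the AhR-poor diet (adjusted p = 7.76e-06), and its change on the I3C diet was -0.50 ± 0.50 (adjusted p = 0.481). The difference between these papain changes was 3.12 ± 0.60 (adjusted p = 0.0336), which did not pass the stricter rule, passed by 0.0181% of all genes, and passed the looser one, as did 0.311% of all genes. It was lost at the looser rule without any of T101, T102, T103, T104, T105, T108, T111, T113, T114 or T115 (adjusted p up to 0.0938).

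Ctss followed a similar pattern at a higher level. Cathepsin S is the protease that removes the last part of the invariant chain from MHC class II molecules in antigen-presenting cells. Its levels on the I3C diet were 2.53, 5.18, 3.46 and 7.38 CPM with vehicle and 9.43, 5.58, 4.85 and 2.91 CPM with papain, so that the treatments overlapped. On the AhR-poor diet they were 13.0, 13.1, 12.5 and 11.7 CPM with vehicle and 35.4, 61.1, 35.5 and 21.3 CPM with papain, with no overlap. With papain the diets differed by 2.75 ± 0.39 (adjusted p = 2.12e-04). With vehicle they differed by 1.44 ± 0.39, which did not pass (adjusted p = 0.0699) although the groups did not overlap. Papain raised Ctss by 1.61 ± 0.37 on the AhR-poor diet (adjusted p = 0.00408), a call lost under the stricter rule without T100, T101, T102, T103 or T105 (adjusted p up to 0.0158), and the change on the I3C diet was 0.30 ± 0.39 (adjusted p = 0.610). The difference between these papain changes was 1.31 ± 0.54 (adjusted p = 0.321).

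Ctsz was called higher in all 4 comparisons, the single member for which this held. Cathepsin Z, also called X, removes single residues from the carboxyl end of proteins and is abundant in myeloid cells. With vehicle its levels were 3.27, 3.03, 2.91 and 5.04 CPM on the I3C diet and 9.07, 7.07, 8.43 and 8.98 CPM on the AhR-poor diet. Under papain they were 12.4, 11.1, 9.05 and 6.49 CPM on the I3C diet and 33.8, 42.3, 31.8 and 20.2 CPM on the AhR-poor diet. None of the 4 pairs of groups compared overlapped. The diet differences were 1.24 ± 0.24 with vehicle (adjusted p = 0.00627) and 1.71 ± 0.23 with papain (adjusted p = 5.45e-05), and the papain changes were 1.93 ± 0.23 on the AhR-poor diet (adjusted p = 8.69e-06) and 1.46 ± 0.24 on the I3C diet (adjusted p = 1.40e-04). The difference between the papain changes was 0.48, with a 95% interval from -0.16 to 1.12. Only 10 exonic bases of Ctsz are shared with its neighbour Nelfcd, which did not pass the test in any comparison.

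The calls between the diets with vehicle lay close to the limit of the stricter rule, while the log2 differences stayed at 1.70 to 2.15 for Ctsk and 1.14 to 1.45 for Ctsz in all 16 refits without 1 library. The call for Ctsk was lost under the stricter rule without any of T100, T101, T102, T103, T104, T107, T108, T109, T110, T111 or T113 (adjusted p up to 0.0366). That for Ctsz was lost without any of T100, T101, T102, T103, T104, T107, T108, T109, T110, T113 or T114 (adjusted p up to 0.0372). Both still passed the looser rule in all 16 refits. The calls for Ctsk, Ctss and Ctsz between the diets with papain held in all 16 refits, with an adjusted p of at most 0.00161.

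Markers of other cells moved with these 3 genes. Of the 12 fibroblast markers, 11 were called higher on the AhR-poor diet with vehicle and 11 with papain, and of the 13 monocyte and macrophage markers 6 and 12 were. For Langerhans cells 2 of 7 markers were called higher in each, and 6 of 7 under the looser rule. For endothelial cells 7 of 7 were higher in each, for mast cells 1 and 5 of 5, and for neutrophils 0 and 6 of 8. For T cells 0 and 2 of 5 were, and for pericytes and smooth muscle 0 and 2 of 5. By DESeq2 the counts of 0 with vehicle were 4 for neutrophils, 0 for T cells and 0 for pericytes and smooth muscle. At an unadjusted p below 0.05 in edgeR they were 3, 1 and 1. The markers at 0 in every library of a group were Fcgr1, Ly6g, Mmp8 and Fcer1a with vehicle on the I3C diet, Ly6g, Cpa3 and Fcer1a with papain on the I3C diet, and Ly6g with vehicle on the AhR-poor diet. Among the papain libraries of the AhR-poor diet, T105 had the highest and T112 the lowest level of Ctsk, Ctss and Ctsz, of the fibroblast sum (746 and 308 CPM) and of the macrophage sum (568 and 133 CPM).

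When the mean log2 CPM of the fibroblast markers was added to the model as a covariate, none of the members passed either rule between the diets, and the difference of Ctsk was -1.73 ± 0.90 with vehicle and -0.88 ± 1.38 with papain (adjusted p = 1 for both). The same covariate left 0 of all 22155 genes called between the diets. Its values did not overlap between the diets, at -2.08 to -0.64 on the I3C diet and 2.43 to 5.24 on the AhR-poor diet, so that marker level and diet cannot be told apart in these libraries. With the macrophage markers as the covariate, the diet difference with papain was -0.36 ± 0.62 for Ctss, -0.06 ± 0.47 for Ctsz and 1.59 for Ctsk, and that of Ctsk with vehicle was -0.01 ± 0.46, again with no member called (adjusted p = 1 for each). That covariate left 1 of all 22155 genes called between the diets with vehicle and 0 with papain. For papain on the AhR-poor diet, Ctsb was the single member still called with either covariate, while the change of Ctss was -0.02 ± 0.56 with the fibroblast and -0.45 ± 0.43 with the macrophage markers. On the I3C diet, where the fibroblast and macrophage sums of the treatments overlapped, the rises of Ctsb and Ctsz held with both covariates. There the 8 neutrophil markers summed to 0.517 to 1.08 CPM with vehicle and 22.2 to 33.1 CPM with papain. Most of the papain sum was Cxcr2, at 24.2 ± 4.25 CPM (SD, n = 4). For papain on this diet 1 of the 8 markers was called higher in edgeR and 6 by DESeq2, beside 818 and 908 of 22155 genes. The part of these markers in the rise of Ctsz was not tested.

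**Figure D4:**
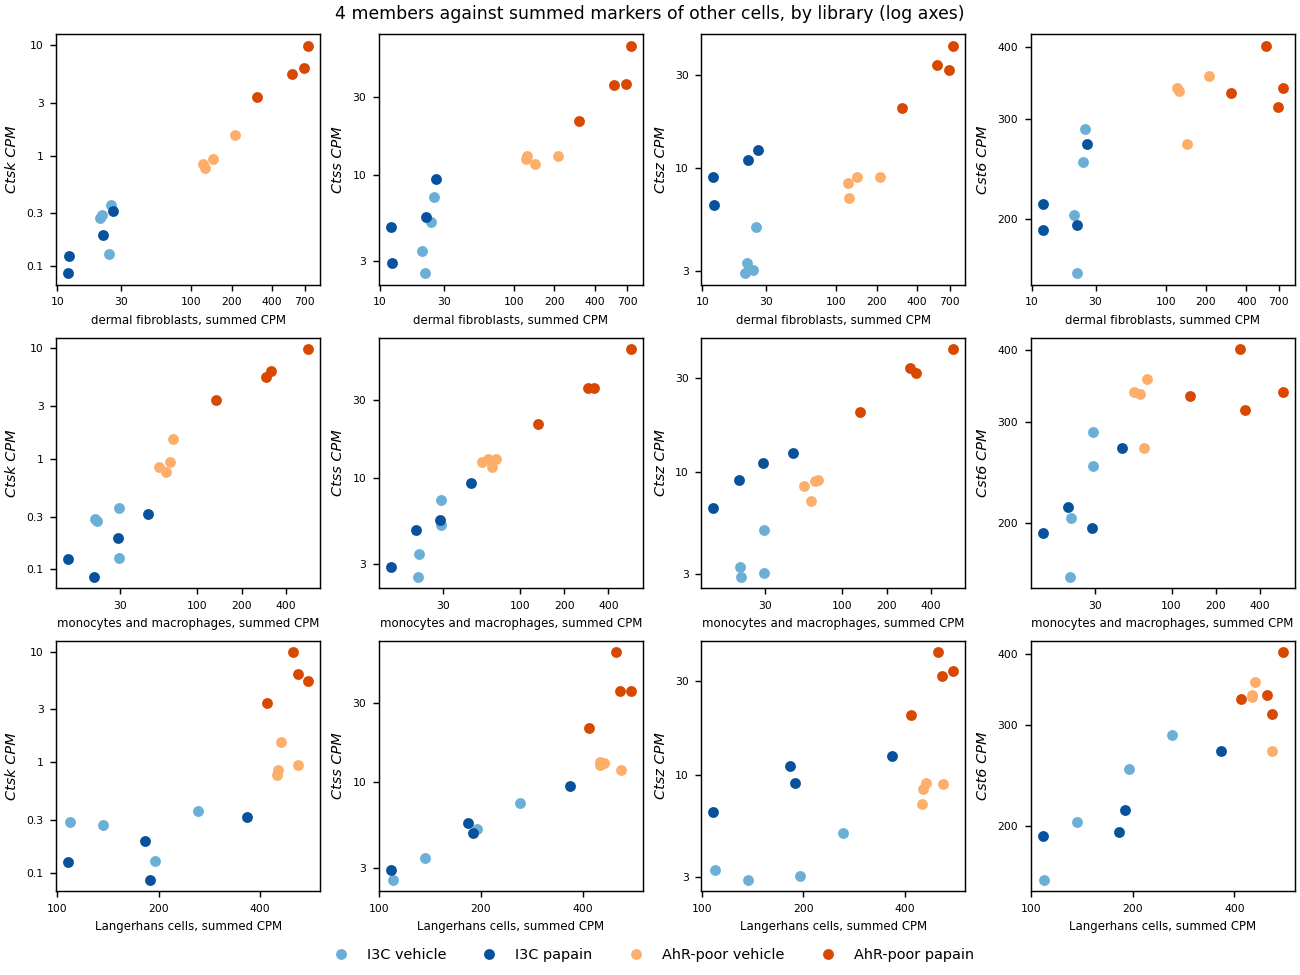
CPM of Ctsk, Ctss, Ctsz and Cst6 (columns, log axes) against the summed CPM of fibroblast, macrophage and Langerhans cell markers (lines of panels, log axes), a point per library coloured by group. Libraries with more fibroblast and macrophage signal have more Ctsk and Ctss, with T105 at 9.90 CPM of Ctsk and 61.1 CPM of Ctss at the top right, while Cst6 spans 161 to 402 CPM.

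Neither cystatin passed the test for papain on either diet. Cst3 had group means of 421 ± 58.1, 434 ± 31.8, 459 ± 20.3 and 454 ± 42.1 CPM (SD, n = 4; vehicle and papain on the I3C diet, then on the AhR-poor diet). Its 4 log2 changes lay between -0.02 and 0.13, and the 95% intervals between -0.20 and 0.31. Cst6 had libraries of 161, 252, 203 and 288 CPM with vehicle and 270, 195, 213 and 192 CPM with papain on the I3C diet. On the AhR-poor diet its libraries were at 356, 335, 339 and 270 CPM with vehicle and at 402, 339, 314 and 333 CPM with papain. With papain the diets did not overlap and differed by 0.67 ± 0.16 (adjusted p = 0.00533), under the fold change of the stricter rule. With vehicle 1 library of the AhR-poor diet fell within the range of the I3C diet, and the difference was 0.53 ± 0.16 (adjusted p = 0.0910). The papain changes of Cst6 were 0.09 ± 0.15 on the AhR-poor diet and -0.05 ± 0.15 on the I3C diet (adjusted p of at least 0.695).

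Over the 16 libraries, the members fell into patterns that can be described by their correlation on the log2 CPM scale, where all values share the same libraries and 4 groups. Ctsk and Ctss had a Pearson r of 0.94, Ctss and Ctsz 0.88, Ctsb and Ctsc 0.88, and Ctss and Cst6 0.86, whereas Ctsb and Ctsk had 0.16. The lowest pair was Ctsb and Ctsh at -0.75. Among 13026 genes with a mean of at least 1 CPM, those most like Ctsk were Cadm3 (0.99), Pdgfra (0.99), Emp3 (0.98), Mcpt4 (0.98) and Prelp (0.98), of which Pdgfra stood on the fibroblast and Mcpt4 on the mast cell list. Those most like Ctss were Lsp1 (0.995), Cytip (0.99), Laptm5 (0.99), Fxyd5 (0.99) and Cd52 (0.98). For Ctsz they were Il1b (0.99), Clec4e (0.99), Lilrb4a (0.98), Mpeg1 (0.98) and Ms4a6d (0.98), with Clec4e from the neutrophil list. For Ctsb they were Slc25a48, Serpinb1a, Efna5, Ifngr1 and Urah, all at 0.99. Cst6 was most like Cd72 (0.95), Elovl3 (0.94), H2-DMb1 (0.93), Ltc4s (0.93) and Cd74 (0.93).

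Ctsk and Ctss are neighbours on chromosome 3, with Ctsk at chr3:95499256-95509362 and Ctss at chr3:95526786-95556403 on the plus strand, 17423 bp apart. Arnt, the partner with which AhR binds DNA, ends 2015 bp before Ctsk. Arnt had 61.9 ± 4.09 and 62.0 ± 3.43 CPM on the I3C diet and 60.6 ± 4.87 and 54.4 ± 2.98 CPM on the AhR-poor diet, and its diet differences of -0.03 ± 0.07 and -0.19 ± 0.07 did not pass (adjusted p = 0.945 and 0.0824). On the other side, Golph3l and Ensa did not pass between the diets either, with log2 differences from -0.18 to -0.07. The pseudogene Hmgb1-ps5, which lies within the span of Ctss, passed the looser rule between the diets with papain (adjusted p = 0.0188), close to the floor with 0.187 ± 0.0998 CPM on the AhR-poor against 0.0337 ± 0.0112 CPM on the I3C diet.

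The promoters of Ctsk, Ctss and Ctsz, the 3 members called higher on the AhR-poor diet with papain, are given as the 250 bases before the start in RefSeq (GRCm38.p6), for Ctsk at chr3:95498960-95499209, for Ctss at chr3:95526536-95526785 and for Ctsz at chr2:174439040-174439289 on the minus strand. They are in lower case throughout because none of the 4 motifs searched was found in them.
Ctsk: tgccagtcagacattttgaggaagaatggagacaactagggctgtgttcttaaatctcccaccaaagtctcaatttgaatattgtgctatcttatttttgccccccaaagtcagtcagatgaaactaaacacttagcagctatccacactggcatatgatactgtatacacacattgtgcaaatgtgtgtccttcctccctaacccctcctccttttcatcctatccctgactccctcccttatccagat
Ctss: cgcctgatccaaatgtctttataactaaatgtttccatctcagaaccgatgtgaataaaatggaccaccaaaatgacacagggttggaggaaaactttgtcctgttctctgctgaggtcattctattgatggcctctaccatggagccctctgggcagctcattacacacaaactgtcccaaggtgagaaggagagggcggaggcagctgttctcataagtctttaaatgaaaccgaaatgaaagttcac
Ctsz: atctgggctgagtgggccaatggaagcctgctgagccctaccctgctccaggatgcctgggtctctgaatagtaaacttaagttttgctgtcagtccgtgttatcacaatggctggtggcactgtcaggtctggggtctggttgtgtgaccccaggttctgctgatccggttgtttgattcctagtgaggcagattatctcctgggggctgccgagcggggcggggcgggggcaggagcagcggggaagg

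The motifs, searched on both strands, were CACGTG (bound by TFEB and related lysosomal regulators), GCGTG (the core bound by AhR with Arnt), TGANTCA (AP-1) and TTCNNNGAA (STAT factors). They were present in 6.02%, 28.2%, 6.75% and 7.02% of 32851 promoters of the same length. Of the 10 members, 7 had an entry, and there was none for Ctsb, Ctsh or Cst6. Among the 7, Ctsd had CACGTG at 2 positions and GCGTG at 1, Ctsl had CACGTG at 1, Ctsc had GCGTG and TTCNNNGAA at 1 position each, and Cst3 had none. The Ctsl window (chr13:64370521-64370770) lay wholly within the gene as annotated in GENCODE (chr13:64359337-64370890). The windows of Ctsd and Cst3 overlapped their annotated genes in part. A match describes letters only, and its absence says nothing on binding.

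Of the 15 other cathepsins listed, 5 had enough counts to be tested, and the remaining 10, most of them placental, had at most 8 counts in all libraries together. None passed either rule between the diets with vehicle in edgeR or DESeq2, and none had an unadjusted p below 0.05. Ctsf, a cysteine cathepsin of the lysosome, fell with papain from 34.7 ± 2.04 to 22.4 ± 2.32 CPM on the I3C diet (SD, n = 4; log2 change -0.63 ± 0.08, adjusted p = 6.95e-06) and from 37.8 ± 1.69 to 24.7 ± 1.90 CPM on the AhR-poor diet (-0.62 ± 0.08, adjusted p = 1.40e-05). Ctse, an aspartic protease of immune cells and epithelia, was at the floor with vehicle on the AhR-poor diet and at least 5.22-fold higher with papain at 0.412 ± 0.281 CPM (adjusted p = 0.00257), and it was also called higher on the AhR-poor diet with papain (adjusted p = 0.00726). Ctsw, known from cytotoxic lymphocytes, was 1.27 ± 0.39 higher on that diet with papain (adjusted p = 0.0287). Ctsa and Ctso did not pass in any comparison.

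Of the 14 other cystatins and relatives, 5 were tested, and the remaining 9 had at most 2 counts in all. Fetub, encoding fetuin-B, an inhibitor of astacin metalloproteases, rose with papain from 4.12 ± 1.02 to 26.0 ± 8.04 CPM on the I3C diet (log2 change 2.65 ± 0.28, adjusted p = 1.89e-06) and from 3.51 ± 0.90 to 17.8 ± 5.58 CPM on the AhR-poor diet (2.34 ± 0.28, adjusted p = 1.09e-05). Cstb, the intracellular stefin B, rose by 0.41 ± 0.11 and 0.45 ± 0.11 (adjusted p = 0.00512 and 0.00305), to 175 ± 18.9 and 180 ± 17.9 CPM. Cst7, the leukocyte cystatin F, was 1.43 ± 0.38 higher on the AhR-poor diet with papain (adjusted p = 0.0104) and rose there with papain by 1.01 ± 0.37 (adjusted p = 0.0402). Kng2, a kininogen, exceeded the floor level of the I3C diet at least 4.85-fold with papain (adjusted p = 5.88e-04). Ahsg had 0 counts with vehicle on the I3C diet and was at least 1.84-fold higher with papain (adjusted p = 6.85e-04).

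Among the 9 partners and substrates, Lgmn, encoding legumain, the protease that matures several cathepsins and is inhibited by cystatin M/E, had the largest papain change. Its vehicle libraries had 39.6, 46.8, 30.3 and 39.4 CPM on the I3C diet and 37.7, 31.9, 36.5 and 31.5 CPM on the AhR-poor diet. Under papain it had 151, 211, 211 and 190 CPM on the I3C diet and 183, 158, 136 and 173 CPM on the AhR-poor diet, and the treatments did not overlap. The log2 changes were 2.29 ± 0.13 (adjusted p = 1.38e-09) and 2.24 ± 0.13 (adjusted p = 3.64e-09). Tgm3, the transglutaminase activated by cathepsin L, fell with papain from 802 ± 138 to 369 ± 22.6 CPM on the I3C diet (log2 change -1.12 ± 0.13, adjusted p = 2.52e-06) and from 655 ± 60.9 to 307 ± 56.5 CPM on the AhR-poor diet (-1.09 ± 0.13, adjusted p = 5.92e-06). Tgm1, another transglutaminase of the envelope, rose on the I3C diet by 1.46 ± 0.24 (adjusted p = 2.29e-04), with a change on the AhR-poor diet of 0.57 ± 0.24 (adjusted p = 0.0804). Cd74, the invariant chain that Ctss cleaves, was higher on the AhR-poor diet by 1.28 ± 0.30 with vehicle and 1.21 ± 0.30 with papain (adjusted p = 0.0307 and 0.0106), which passed the looser rule. Grn, encoding progranulin, fell by 0.63 ± 0.09 with papain on the I3C diet (log2 scale, adjusted p = 9.83e-06) and was 0.46 ± 0.09 higher on the AhR-poor diet with papain (adjusted p = 6.80e-04). Psap, Cdsn, Flg and Lor did not pass in any comparison.

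**Figure D5:**
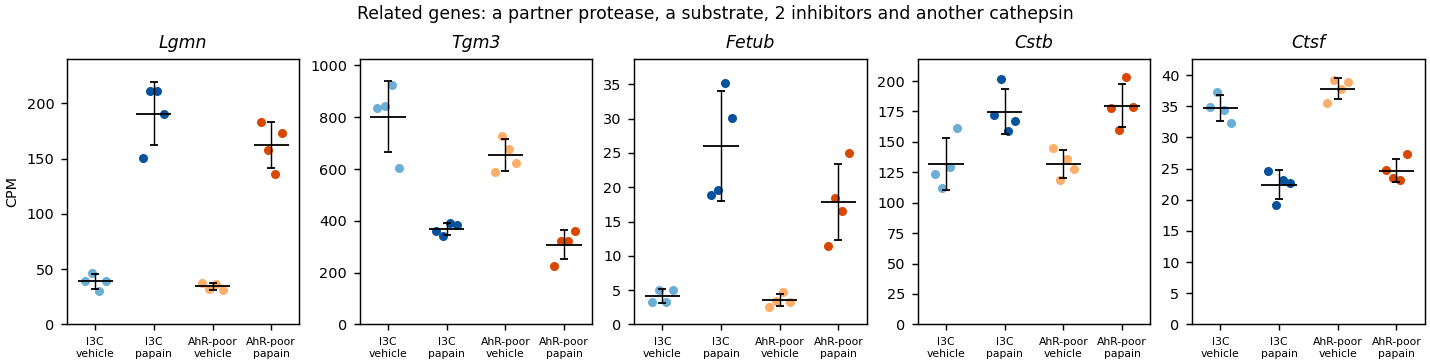
CPM of Lgmn, Tgm3, Fetub, Cstb and Ctsf in each of 16 libraries (linear axes from 0, points per library, mean and SD of 4 as bars and whiskers). In both diets the papain libraries lie higher than the vehicle libraries for Lgmn and Fetub and lower for Tgm3 and Ctsf.

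The 33 other lysosomal genes listed, hydrolases, membrane proteins and sorting receptors, were counted under both rules. In edgeR and in DESeq2 none was called between the diets with vehicle or for papain on either diet. In edgeR 1 of the lysosomal genes was higher on the AhR-poor diet with papain, beside 7.15% of all genes. It was Hexa at 9.44 ± 1.97 against 3.78 ± 0.85 CPM (log2 difference 1.32 ± 0.18, adjusted p = 3.97e-05). Under the looser rule, papain moved 8 up and 8 down on the AhR-poor diet, beside 17.7% and 15.7% of all genes, and 9 up and 10 down on the I3C diet, beside 16.9% and 18.4%. Cd63, a membrane protein of late endosomes, rose by 0.79 ± 0.09 and 0.63 ± 0.09 (adjusted p = 1.88e-06 and 1.49e-05). Tfeb, the regulator of lysosomal genes, changed by -0.44 ± 0.10 and -0.64 ± 0.10 (adjusted p = 0.00161 and 3.93e-05). Between the diets with papain, 10 were higher and 2 lower under the looser rule, beside 12.3% and 8.36% of all genes. With vehicle 0 passed it in either direction by edgeR or DESeq2, beside 2.98% of all genes higher and 0.0993% lower in edgeR. At an unadjusted p below 0.05 in edgeR 2 were higher.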

How the data were processed

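RNA-seq libraries of footpad epidermal cells from 16 mice, 4 per group, were made with the TruSeq Stranded mRNA kit. The processing notes of the submitters name FastQC, STAR, DESeq2 and mm10. The authors deposited raw counts of reads per gene and library, not normalized, and the counting tool, annotation release and strand setting are not given in the sources used here. The 3 sequencing units are not tied to libraries in the labels.

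Groups were taken from the labels. Of 50600 identifiers, 50376 matched a symbol in GENCODE M21 (GRCm38) and 224 did not. A gene needed a total of 10 counts or more to be tested (22155 genes). TMM factors and the robust quasi-likelihood F test of edgeR 4.0.16 (R 4.3.3) were used with a mean per group over all 16 libraries, and p-values were adjusted over all genes tested (Benjamini-Hochberg). CPM were computed from the counts with those factors, and correlations used log2 CPM with a prior count of 2. The alternatives were RLE factors, no factors, filterByExpr, every gene with at least 1 count, DESeq2 1.42.0, only the groups compared, other call rules, marker covariates and leaving out each library in turn. An adjusted p below 0.05 at any fold change was part of the design. The model was tested on simulated data.

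The members and lists were chosen with earlier results of these data known. All 10 members were named, genes of the related lists were named where an adjusted p was below 0.05 or to account for the list, likeness named the 5 genes with the highest r, and genomic neighbours were named for their position. No table of protein sequences was used, so the planned search for active site motifs was made on coding sequences of GENCODE M21. The labels do not say whether mice were handled in separate experiments, and p-values measure the spread between these libraries.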

Additional observations from a re-analysis of the deposited data

Results flagged for a closer look

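With vehicle on the I3C diet, the library T111 had 5.04 CPM of Ctsz against 2.91 to 3.27 CPM in the other 3, a gap of 0.830 of the group's range, just over Dixon's critical value for 4 samples. This was 1 of 40 combinations of member and group examined, and chance alone would mark about 1 in 20.

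The papain change of Ctsk differed between the diets by 3.12 on the log2 scale (adjusted p = 0.0336, edgeR), with a change of 2.62 ± 0.33 on the AhR-poor diet, where all 4 papain libraries exceeded all 4 vehicle libraries, and of -0.50 ± 0.50 on the I3C diet, where libraries had 3 to 13 counts. The fibroblast marker sum moved in the same way, from 122 to 212 CPM up to 308 to 746 CPM on the AhR-poor diet and from 20.7 to 25.2 CPM to 12.1 to 26.1 CPM on the I3C diet.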

How the results depend on the processing

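No paired analysis was possible because no replicate code occurs in more than 1 group. RLE factors, library size alone, filterByExpr and the fit of the 2 groups compared moved no count of called members by over 1.5 times. Between the diets with vehicle, the fit of the 2 groups compared gave 3 members higher. Keeping every gene of at least 1 count gave 1. DESeq2 gave 2, where it called 595 of 22155 genes higher against 352 in edgeR, and 4 under the looser rule. The counts over all genes in the other settings, and under the looser rule in DESeq2, are not given here. With the fibroblast and with the macrophage covariate, counts of members higher were 0 and 0 with vehicle and 0 and 0 with papain between the diets, under either rule, and 1 and 1 under either rule when papain was compared with vehicle on the AhR-poor diet. For the interaction, 1 member passed the stricter rule with DESeq2, where 200 of 22155 genes were called higher against 4 in edgeR, and 1 with an adjusted p below 0.05, and 2 passed the looser rule with DESeq2, 0 with the fibroblast and 0 with the macrophage covariate. For papain on the I3C diet, 1 member was lower with no minimum fold change, and 2 under the looser rule with the macrophage covariate.

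Of the values that had passed either rule, those that turned direction did so with a covariate. With the fibroblast covariate, diet differences on the log2 scale were -1.73 for Ctsk and -0.52 for Ctsz with vehicle, and with papain -0.61 for Ctsh, -0.88 for Ctsk, -0.21 for Ctsl, -1.87 for Ctss, -1.18 for Ctsz and -0.26 for Cst6, and the papain change of Ctss on the AhR-poor diet was -0.0227. With the macrophage covariate they were -0.00825 for Ctsk with vehicle, -0.24 for Ctsh, -0.36 for Ctss, -0.0565 for Ctsz and -0.0426 for Cst6 with papain, and -0.45 for Ctss with papain on the AhR-poor diet. Of 29 member values that had passed neither rule, 18 changed sign with a covariate, among them the diet difference of Ctss with vehicle (-1.32 with the fibroblast and -0.24 with the macrophage covariate), and 9, of at most 0.30 in size, under another alternative or without 1 library. Neither covariate overlapped between the diets.

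Leaving out 1 library gave 0 to 2 members higher between the diets with vehicle, and 2 to 4 under the looser rule, with 4 without T111. For the interaction it gave 0 to 1 under either rule, with 1 under the stricter rule without T112. Members with all libraries higher with vehicle numbered 3 to 6, with 6 without T111, and those with all libraries lower numbered 0 to 1 with vehicle (1 without T100), 0 to 1 between the diets with papain (1 without T106) and 0 to 1 between the treatments of the AhR-poor diet (1 without T102). With 1 library fewer, groups separate more easily for any gene. The share of all genes was not computed for these refits, so the counts say nothing particular to the members. Per kb of coding length, levels were 1052 CPM for Cst3, 624 for Cst6, 467 for Ctsb, 191 for Ctsd, 84.6 for Ctsl, 39.8 for Ctsh, 34.0 for Ctsc, 15.0 for Ctss, 14.6 for Ctsz and 1.96 for Ctsk. At 3 to 13 counts per library, the level of Ctsk on the I3C diet is limited by depth.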

Other observations

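The following ratio was chosen after its values were seen. The summed CPM of the 8 cathepsins divided by that of Cst3 and Cst6 was 1.06 ± 0.21 with vehicle and 1.75 ± 0.22 with papain on the I3C diet (SD, n = 4), and 0.864 ± 0.0334 with vehicle and 1.46 ± 0.0636 with papain on the AhR-poor diet. These sums weigh longer genes more. Per kb of exon the ratio was 0.445 ± 0.0493 and 0.660 ± 0.0541 on the I3C diet, and 0.417 ± 0.0109 and 0.693 ± 0.0620 on the AhR-poor diet, again with vehicle first. Per kb of exon, Ctsb made up 28.0% ± 2.83 and 44.7% ± 3.77 of the cathepsin sum on the I3C diet. On the AhR-poor diet it made up 24.6% ± 0.93 and 34.1% ± 2.04. Ctsd made up 51.1% ± 4.84 and 39.9% ± 1.44 on the I3C diet, and 51.8% ± 2.02 and 37.1% ± 3.37 on the AhR-poor diet. By this measure the mean share of Ctsd was above that of Ctsb in each group except papain on the I3C diet. With papain on the AhR-poor diet the ranges overlapped, at 32.9% to 41.2% for Ctsd and 32.3% to 37.1% for Ctsb. The order depended on the length used. In CPM not divided by length, Ctsb had the higher mean share in every group, at 40.5% to 62.3% against 21.7% to 33.2% for Ctsd. Per kb of coding length over all libraries, Ctsb also stood above Ctsd. With papain on the AhR-poor diet, the shares per kb of exon were 9.06% ± 3.33 for Ctss, 7.19% ± 1.67 for Ctsz, 2.89% ± 0.27 for Ctsh and 1.33% ± 0.49 for Ctsk. In that group the cystatin sum in CPM was 801 ± 27.5, against 651 ± 55.8 CPM with papain on the I3C diet.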
